A study of Mus musculus with 12 samples.

Results

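The cecum of the mouse was compared between 72 h and 12 h after cauterization, directly rather than each against the sham control. Members were chosen by the treatment label alone, which put 3 of the 12 arrays of the series in the 72 h group and 3 in the 12 h group, 6 arrays in all. All 12 arrays came from C57BL/6 mice whose abdomen was opened along the midline under pentobarbital anaesthesia and whose cecum, in the cauterized animals, was coagulated with bipolar forceps before the wall was sutured. The other 6 arrays, 3 of a sham operation sampled at 0 h and 3 of tissue taken 3 h after cauterization, entered the fit for its estimate of the spread and are given as background levels. The labels name no transgene, drug or antibody for any of these groups. The age of the mice and the number of mice per RNA sample are not given in the sources used here. Nor is the hour of the day at which tissue was taken. Standard errors and limma p-values of the reported fit rest on the spread between the 3 samples of a group. That spread was pooled over all 12 arrays and moderated across probes by limma. For a single gene the standard error can therefore be smaller or larger than the 6 arrays alone would give.

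RNA of the cauterized tissue was labeled with Cy3 and measured on Agilent SurePrint G3 Mouse GE v2 arrays, 1 sample to an array, where a spot shines in proportion to the transcript bound by its probe. A level is given here as log2 of the background-corrected intensity minus the 75th percentile of the same array, so that 0 is the brightness that 75 percent of probes fall below. A difference is the 72 h mean minus the 12 h mean on this log2 scale with its standard error, and a gene was called higher or lower where the fold exceeded 2 and the limma p adjusted by Benjamini-Hochberg over all 56605 probes was below 0.05. Levels of 3 arrays are given in the order of replicates 1, 2 and 3. Because the levels of different probes are not comparable, no gene's level is set against that of another gene. In whole tissue, fewer cells of a type and less RNA per cell cannot be told apart.

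The 6 arrays were of like quality. The 75th percentile of the intensity lay between 316 and 320 on the 12 h arrays and between 351 and 375 on the 72 h arrays, and probes well above background made up 61.3% to 65.2% of each array. Correlations across all probes were between 0.986 and 0.988 among the 12 h arrays, between 0.985 and 0.991 among the 72 h arrays and between 0.968 and 0.984 across the groups. The label gives the mice as male. Xist, which is transcribed from the inactive X chromosome of female cells, was well above background on all 6 arrays, and the Y-linked genes Ddx3y, Eif2s3y and Uty were so on none of them, while the brightest probe of Kdm5d was above background on all 6. The label and these probes therefore do not match, in the 12 h and the 72 h group alike. The hybridisations were also spread unevenly over the slides. All 72 h arrays and 12 h replicate 3 lay on slide 2, and 12 h replicates 1 and 2 lay on slide 1 together with the sham and 3 h arrays. With the slide as a term in the fit, the difference between 72 h and 12 h rests on 12 h replicate 3 as the only 12 h array beside the 72 h arrays. The count under that fit is given beside most groups of genes below.

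The first days of a wound run through overlapping phases. Neutrophils arrive first, guided by chemokines, and release stored granule proteins, while stressed cells make chaperones and early response transcription factors. Monocytes follow and become macrophages that clear debris, and fibroblasts and mesothelial cells then lay down collagen, which is hydroxylated inside the cell, trimmed outside it and crosslinked into fibrils. On the serosa of the bowel this sequence can end in a fibrous adhesion, and the samples were taken to follow adhesion formation over time. The comparison asks which transcripts separate the cauterized cecum of the first day from that of the third.

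Between 12 h and 72 h, 1604 of 37074 genes were higher and 1184 were lower, which is 4.33% and 3.19% of the genes tested and 7.52% in all. Among the 23133 genes above background on all arrays of at least 1 of the groups, 6.17% were higher and 3.93% lower, 10.1% in all. The difference exceeded 4-fold in 408 higher and 220 lower genes, and 16-fold in 28 higher and 11 lower genes. In 2761 of the 2788 called genes the 3 arrays of 72 h did not overlap the 3 of 12 h. The call rule itself favours such genes, and the share over all genes was not counted. Some genes that were not called, among them Stat3, Smad2 and Mki67, did not overlap either. The median difference over all genes was -0.14, so that a gene at 0 stood slightly above the middle of the distribution. Quantile normalization moved this median to -0.01 and gave 1653 higher and 919 lower genes. With the slide as a term, 699 genes were higher and 526 lower, and 970 of these 1225 genes were also called in the fit without it, none of them in the opposite direction.

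**Figure D1:**
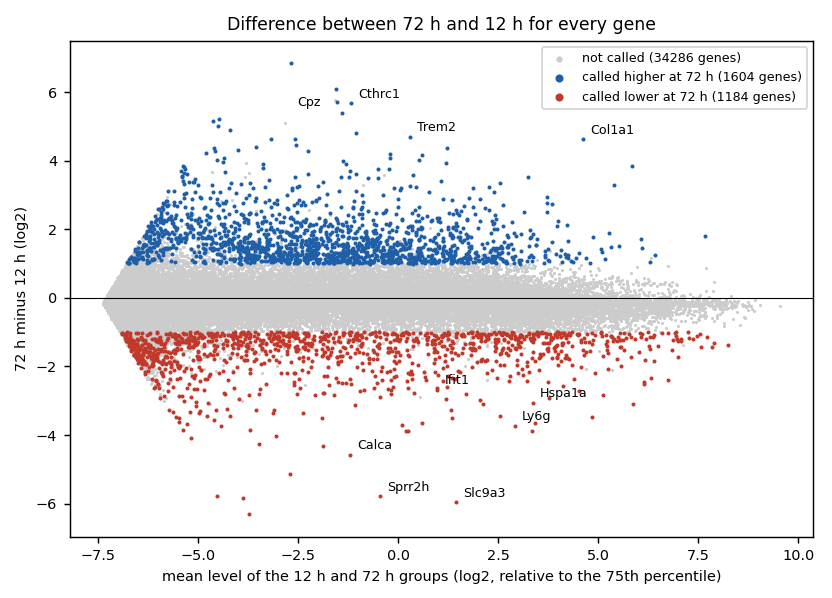
Difference between 72 h and 12 h (log2, vertical axis) against the mean level of both groups (log2 relative to the 75th percentile, horizontal axis) for 37074 genes, 1 probe each. Blue points are the 1604 genes called higher at 72 h and red points the 1184 called lower; Col1a1, Cpz, Cthrc1 and Trem2 are named among the rises, and Slc9a3, Sprr2h and Calca among the falls.

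The 10 largest rises among called genes with a symbol, well above background on all 6 arrays and without overlap between the groups, held genes of the extracellular matrix, a mesothelial transcription factor and a macrophage receptor. Cpz, a carboxypeptidase secreted into the matrix, was at -4.34, -4.63 and -4.22 at 12 h and at 2.07, 1.57 and 0.31 at 72 h. No 12 h array came near the 72 h arrays, and the difference was 5.71 ± 0.36, adjusted p = 5.88e-05. Cthrc1, a secreted protein made by activated fibroblasts, went from -3.69, -4.59 and -3.74 to 3.02, 1.24 and 0.73 (5.67 ± 0.50, adjusted p = 0.000177). In both genes 72 h replicate 1 was the highest of the 6 arrays and 72 h replicate 3 the lowest of its group. Sfrp2, a secreted modulator of Wnt signaling, differed by 5.38 ± 0.82, Mest, an imprinted gene of mesodermal tissues, by 4.28 ± 0.44, and Itm2a, a membrane protein, by 4.18 ± 0.13 with the smallest adjusted p of these 10 genes, 6.55e-07. Sval1 differed by 4.81 ± 0.47. The remaining rises of this set were those of Trem2, Col1a1, Lox and Wt1, described with their groups below.

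The 10 largest falls by the same rule, background and overlap included, held transporters of the epithelium, genes of stressed epithelium and a neutrophil marker. Slc9a3, the apical sodium-hydrogen exchanger that absorbs sodium from the gut lumen, was at 4.97, 4.23 and 4.07 at 12 h and at -2.12, -2.78 and 0.28 at 72 h (-5.96 ± 0.64, adjusted p = 0.000423). The 12 h arrays lay close to the sham mean of 4.15, and all 3 of the 72 h arrays lay far below it, replicate 3 the least. Slc10a2, the apical bile acid transporter, fell from 2.53, 2.13 and 1.87 to -2.03, -2.31 and -0.77 (-3.88 ± 0.35, adjusted p = 0.000199). The transcript 9130221J18Rik, whose probe lies at chr8:5083366-5083425 of mm9 beside that of Slc10a2 at chr8:5086145-5086204, went from 2.37, 1.90 and 1.60 to -2.14, -2.32 and -0.84. These values follow those of Slc10a2 array by array, and the probes may read neighbouring transcripts or the same one. Slc51b, a subunit of the basolateral bile acid exporter, differed by -3.49 ± 0.44.

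Other large falls were genes that had been raised at 12 h. Sprr2h and Sprr1a encode small proline-rich proteins of stressed surface epithelium. Sprr2h stood at 2.80, 2.65 and 1.84 at 12 h and at -3.54, -3.32 and -3.18 at 72 h, against a sham mean of -3.26 (-5.78 ± 0.82, adjusted p = 0.00145). Sprr1a fell by more than its distance from the sham mean of 4.03, from 5.19, 5.53 and 5.06 to 1.71, 1.89 and 1.21 (-3.66 ± 0.35, adjusted p = 0.000255). The Sprr2 family holds near-identical copies, so the probe may read more than 1 of them. Calca, which encodes calcitonin and the neuropeptide CGRP, fell from 1.88, 0.76 and 0.63 to -3.15, -3.76 and -3.53, with no overlap of the groups (-4.57 ± 0.38, adjusted p = 0.000152). Prss27, a serine protease, differed by -3.50 ± 0.93 and 2010109I03Rik by -3.66 ± 0.31.

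Of 39 gene lists described below, those of collagen, its processing, matrix glycoproteins and complement had the largest shares of higher genes, and the type I interferon response, heat shock genes, immediate early genes and alternative activation genes the largest shares of lower genes. The shares are read against 4.33% higher and 3.19% lower over all genes. Most genes of the lists were above background, and among such genes the shares were 6.17% and 3.93%. In the plot of calls per list, T cells, B cells, smooth muscle and the cell cycle had no called gene.

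**Figure D2:**
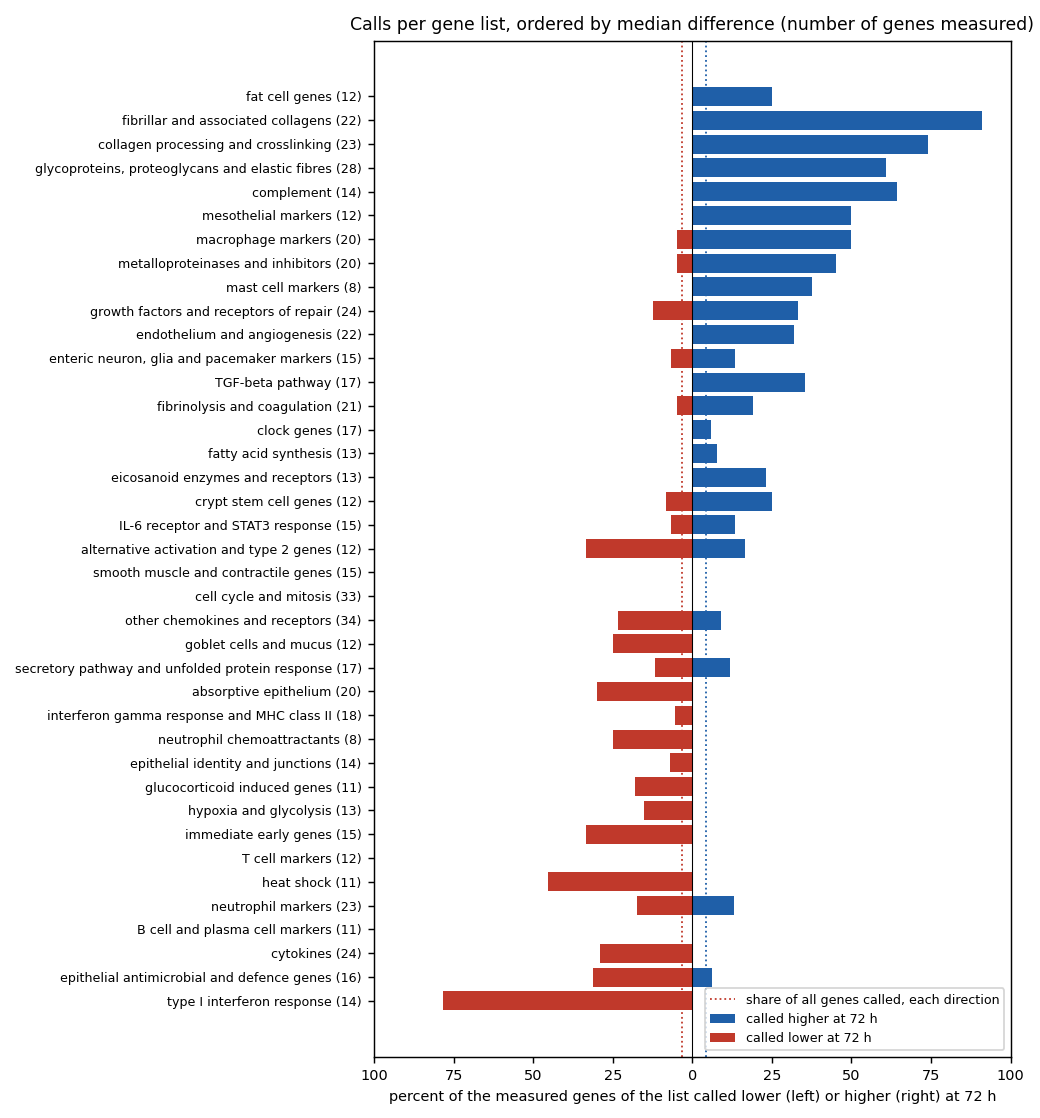
Percent of the measured genes of each list called higher (blue, to the right) or lower (red, to the left) at 72 h, with the number of genes measured in brackets and the lists in order of their median difference. Dotted lines stand at the shares of all genes called in each direction, 4.33% and 3.19%; collagens reach farthest to the right with 20 of 22 genes and the type I interferon response farthest to the left with 11 of 14.

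Fibrillar collagens and the chains associated with them were higher at 72 h. Of the 22 of these measured, 20 were called higher and 0 lower, with a median difference of 2.12, and 15 were called higher with the slide as a term. Col1a1, a chain of type I collagen, the main fibril of scar, was at 2.25, 2.26 and 2.39 at 12 h and at 7.58, 6.95 and 6.27 at 72 h. The 12 h arrays lay close together and below the sham mean of 3.93, whereas the lowest 72 h array lay far above it (4.63 ± 0.26, adjusted p = 4.37e-05). Col3a1, the type III chain of young granulation tissue, went from 3.46, 3.80 and 3.97 to 7.58, 7.11 and 6.39 (3.29 ± 0.28, adjusted p = 0.000157). Col1a2 differed by 3.85 ± 0.29, and the type V chains Col5a1, Col5a2 and Col5a3, which set the width of the fibrils, by 3.53 ± 0.34, 2.78 ± 0.33 and 3.41 ± 0.39. All 3 arrays of 72 h exceeded all 3 of 12 h for each of these chains.

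Chains of cartilage fibrils and of basement membranes were called as well. Among the 9 fibrillar chains of types I, II, III, V and XI, 8 were higher, with a median of 3.41. Col2a1 and Col11a1, known from cartilage, differed by 4.01 ± 0.42 and 2.87 ± 0.37, while Col11a2 was not called (-0.62, adjusted p = 0.311). Col24a1 was not well above background on any array of 12 h and was at least 8.68-fold higher at 72 h. The type VI chains Col6a1, Col6a2 and Col6a3, which form beaded microfibrils, differed by 1.66 ± 0.23, 1.77 ± 0.27 and 2.18 ± 0.21. The smallest called differences were those of Col4a1 and Col4a2, the main chains of basement membrane, with 1.19 ± 0.18 and 1.03 ± 0.17. Col27a1 did not pass the 2-fold threshold (0.88, adjusted p = 0.025).

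The enzymes and chaperones that finish collagen were higher along with it. Of 23 genes for collagen processing and crosslinking, 17 were called higher and 0 lower, with a median of 1.85, and 12 were called higher with the slide as a term. Lox, a lysyl oxidase that starts the crosslinks, went from -0.94, -1.32 and -0.64 at 12 h to 4.42, 2.97 and 2.83 at 72 h (4.37 ± 0.38, adjusted p = 0.000173). No 12 h array came near the 72 h arrays, and replicates 2 and 3 of 72 h were close together below replicate 1. Of the 5 lysyl oxidases, 4 were called, and Loxl4 was not (0.52, adjusted p = 0.102). Inside the cell, Serpinh1, the collagen chaperone HSP47, differed by 2.25 ± 0.28, and Fkbp10, a prolyl isomerase of the endoplasmic reticulum, by 2.49 ± 0.31. Of the 3 prolyl 4-hydroxylase alpha chains, P4ha2 and P4ha3 were called, with 1.86 ± 0.23 and 1.85 ± 0.52. P4ha1 was not called (0.30, adjusted p = 0.328). Plod2, a lysyl hydroxylase, differed by 2.45 ± 0.39. Outside the cell, Bmp1 and Adamts2, which cut off the carboxyl and amino propeptides, differed by 2.65 ± 0.31 and 2.71 ± 0.41, and Pcolce, an enhancer of Bmp1, by 2.73 ± 0.29.

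**Figure D3:**
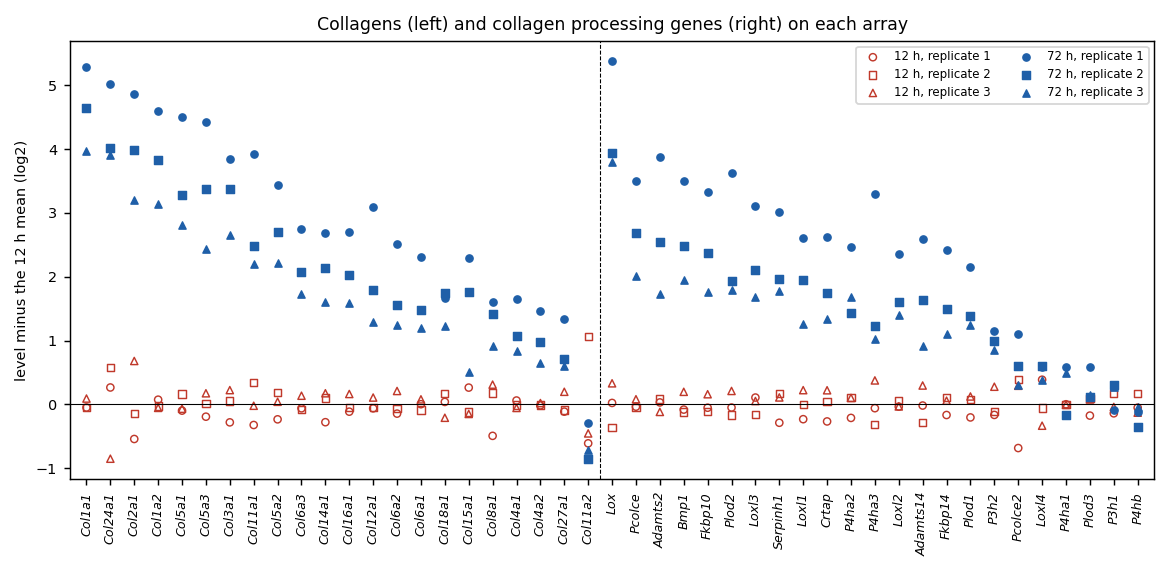
Level of 22 collagens (left of the dashed line) and 23 collagen processing genes (right) on each array, as the distance from the 12 h mean of the gene (log2); open red symbols are the 12 h arrays and filled blue symbols the 72 h arrays, with circles, squares and triangles for replicates 1, 2 and 3. The 72 h arrays lie above the 12 h arrays in the 20 collagens and 17 processing genes called, and 72 h replicate 1 lies highest in most of them.

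Matrix glycoproteins, proteoglycans and elastic fibre genes showed the same direction. Of 28 measured, 17 were called higher and 0 lower, with a median of 1.48, and 12 with the slide as a term. After Cthrc1, the largest differences were those of Thbs2 (3.53 ± 0.65), a matricellular protein, Fbln2 (3.35 ± 0.29), a fibulin of elastic fibres and basement membranes, and Lum (3.10 ± 0.24), a proteoglycan that spaces collagen fibrils. Has2, a hyaluronan synthase, differed by 2.37 ± 0.34, Fbn1, the microfibril protein fibrillin-1, by 2.33 ± 0.37, Postn, periostin, by 1.48 ± 0.21 and Fn1, fibronectin, by 1.46 ± 0.18. Not every matrix gene moved this way. Tnc, tenascin-C, was at -0.50 (adjusted p = 0.0168) and did not reach the 2-fold threshold, Thbs1 was at -1.15 (adjusted p = 0.0603) and Spp1, osteopontin, at 1.104 (adjusted p = 0.335).

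Of 20 metalloproteinases, which cut the matrix, and their inhibitors, 9 were called higher and 1 lower, with a median of 0.95, and 7 were higher and 0 lower with the slide as a term. Adamts12 (3.52 ± 0.38), Mmp23 (3.21 ± 0.42), Mmp12 (2.91 ± 0.37), the elastase of macrophages, and Mmp2 (2.48 ± 0.26), a gelatinase of stromal cells, were the largest rises. The inhibitors Timp1 and Timp2 differed by 1.90 ± 0.35 and 1.44 ± 0.15, and Mmp14, the membrane enzyme that activates Mmp2, by 1.27 ± 0.17. Mmp13, an interstitial collagenase, fell by 1.30. Mmp3, a stromelysin, had a difference of -1.78 that did not pass (adjusted p = 0.0726).

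The 72 h arrays were not alike in their stromal genes, and other tissue components moved with them. The mean level over the 22 collagens was 2.81 on 72 h replicate 1, 2.08 on replicate 2 and 1.61 on replicate 3, against -0.30 to -0.08 on the 12 h arrays. The mean over 12 fat cell genes was 3.12, 2.23 and -1.19 on the 72 h arrays in that order and -1.50, 0.07 and -1.50 on the 12 h arrays. Their part in the collagen levels was not tested. Cfd, or adipsin, was at -7.45, 1.18 and -7.15 at 12 h and 6.57, 4.77 and -7.45 at 72 h, which differed by 5.77 ± 3.80 without passing (adjusted p = 0.339). Adipoq, adiponectin, followed the same arrays, from -6.88, -2.18 and -7.06 to 3.99, 2.61 and -7.42 (5.10 ± 2.71, adjusted p = 0.233). These secreted proteins define fat cells, and on 12 h replicates 1 and 3 and 72 h replicate 3 they stood near the floor of the arrays. Of the 12 fat cell genes, 3 were called higher, Lpl, Adrb3 and Fabp4, and 0 with the slide as a term. Without 72 h replicate 3, 7 of them were called higher.

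Mesothelial cells cover the serosa and take part in adhesions. Of 12 of their markers, 6 were called higher and 0 lower, with a median of 1.36, and 6 also with the slide as a term. Wt1, a transcription factor of the mesothelium, was at -2.42, -3.09 and -1.40 at 12 h and at 3.03, 1.47 and 1.20 at 72 h, with no overlap (4.20 ± 0.58, adjusted p = 0.00128). Lrrn4, Upk3b and Bnc1 were not well above background on any array of 12 h, and all were above it on the 72 h arrays. They were at least 7.89-fold, 4.88-fold and 2.53-fold higher. Gpm6a differed by 2.19 ± 0.31 and Upk1b by 1.75 ± 0.25. Other markers did not pass. Msln, mesothelin, was at 0.88 (adjusted p = 0.69), and Pdpn, podoplanin, at 0.26 (adjusted p = 0.188). Against sham, Pdpn was called higher at both times, by 2.32 at 12 h and 2.58 at 72 h. The mean level of the 12 markers was between -2.86 and -2.36 on the 12 h arrays and between -0.93 and -0.13 on the 72 h arrays, again highest on replicate 1.

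The contractile genes that mark smooth muscle and myofibroblasts showed no called change between 12 h and 72 h. Of 15 genes, limma called 0, with 7 at an unadjusted p below 0.05, and the unpaired t-test also called 0. The methods' paired t-test called 0 of all 37074 genes, so its 0 here says nothing about this list. Acta2, which encodes alpha smooth muscle actin, was at 5.33, 5.49 and 6.20 at 12 h and at 6.09, 6.18 and 6.32 at 72 h. The level on 12 h replicate 3 lay among those of 72 h, and the difference was 0.52 ± 0.21, adjusted p = 0.117. Myh11, the smooth muscle myosin heavy chain, was at -0.75 (adjusted p = 0.0555). The median of the list was 0.02 and fell to -0.27 with the slide as a term. Against sham, 13 of the 15 genes were called lower at 12 h and 10 at 72 h, and 0 were higher at either time. Both counts share the sham arrays, where the mean of Acta2 was 7.20.

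TGF-beta is the growth factor most closely tied to scar formation. Tgfb1 was at 0.03, 0.11 and 0.04 at 12 h and at 0.02, -0.12 and 0.08 at 72 h, and its difference of -0.06 ± 0.18 was not called (adjusted p = 0.824). The arrays of the groups overlapped. Against the sham mean of -1.15, Tgfb1 was called higher at both times, by 1.21 at 12 h and 1.14 at 72 h. Tgfb3 went from -0.60, -0.77 and -0.25 to 1.34, 1.21 and 0.73 (1.64 ± 0.20, adjusted p = 0.000733), and Tgfb2 differed by 1.21 ± 0.25. Of 17 genes of the pathway, 6 were called higher and 0 lower, with a median of 0.33, and 3 with the slide as a term. The others called were Ltbp3 (2.08 ± 0.24) and Ltbp1 (1.17 ± 0.12), which hold latent TGF-beta in the matrix, the coreceptor Tgfbr3 (1.37 ± 0.23) and Inhba (1.16 ± 0.29), a chain of activin. The signal transducers Smad2 and Smad3 stood at -0.47 (adjusted p = 0.00484) and -0.81 (adjusted p = 0.00736), and the inhibitory Smad7 at -0.80 (adjusted p = 0.00471), all below the 2-fold threshold.

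Among 21 genes of fibrinolysis and coagulation, 4 were called higher and 1 lower, and 3 and 0 with the slide as a term. Plat, the tissue plasminogen activator, differed by 1.68 ± 0.23, Serpine2, a protease inhibitor, by 1.46 ± 0.15, and the anticoagulants Tfpi and Pros1 by 1.12 ± 0.24 and 1.11 ± 0.14. Plaur, the receptor of urokinase, fell by 1.37. Without 72 h replicate 1, 2 of the 21 genes were called higher and 0 lower.

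Of 20 macrophage markers, 10 were called higher and 1 lower, with a median of 1.28, and 6 and 0 with the slide as a term. Trem2, a lipid receptor of macrophages that clear debris, was at -2.14, -2.22 and -1.83 at 12 h and at 3.36, 2.42 and 2.13 at 72 h, above the sham mean of -1.13 (4.70 ± 0.28, adjusted p = 5.03e-05). Csf1r, the receptor of the macrophage growth factor CSF-1, went from 3.84, 4.05 and 4.03 to 5.74, 5.80 and 5.74 (1.79 ± 0.11, adjusted p = 5.3e-05). Its arrays were tight in both groups and far apart between them. Folr2 (3.01 ± 0.38), Mrc1 (2.04 ± 0.35) and Cd163 (1.97 ± 0.32), which mark tissue-resident and scavenging macrophages, Adgre1 (1.45 ± 0.21), a surface receptor of mature macrophages, and Apoe (1.73 ± 0.22), which carries lipid, were also higher. Vsig4 was well above background on 0 arrays of 12 h and 2 of 72 h and was at least 1.69-fold higher. Cd14, a coreceptor for bacterial lipopolysaccharide, went the other way (-1.44 ± 0.30, adjusted p = 0.00909). The general phagocyte genes Lyz2 and Cd68 were not called, with Lyz2 at 0.86 (adjusted p = 0.0759) and Cd68 at 0.61 (adjusted p = 0.0399).

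Of 14 complement genes, 9 were called higher and 0 lower, with a median of 1.41, and 6 with the slide as a term. The 3 chains of C1q, the first component of the classical pathway and a product of macrophages, all rose, C1qa by 1.52, C1qb by 1.52 and C1qc by 1.85. C2 differed by 1.78 ± 0.33, C4b by 1.42 ± 0.23 and Serping1, the C1 inhibitor, by 1.37 ± 0.22. C3 was at 0.92 (adjusted p = 0.0542) and was not called.

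Genes of alternative activation and type 2 responses went both ways, with 2 of 12 higher and 4 lower, and the median of the list, 0.10, fell below 0 with normexp background correction and without 12 h replicate 3. Arg1, which turns arginine into ornithine, went from 1.59, 1.62 and 1.42 to 2.69, 2.82 and 4.12 (1.67 ± 0.42, adjusted p = 0.0228). Clec10a, a lectin of macrophages and dendritic cells, differed by 4.07 ± 0.57. Against these, Chil3 was at 2.62, 2.12 and 2.12 at 12 h and at -1.03, -1.75 and 1.77 at 72 h, with replicate 3 near the 12 h arrays (-2.62 ± 0.73, adjusted p = 0.0334). Retnla differed by -2.12 ± 0.58 and Mgl2, a close relative of Clec10a, by -1.03 ± 0.25. Chil4, the remaining gene called lower, is nearly identical to Chil3 in sequence, and its probe was well above background on 1 array of 12 h and on none of 72 h. Between 2 and 3 of the 12 genes were called when 12 h replicate 1, 2 or 3 or 72 h replicate 1 was left out, and 2 were higher and 1 lower with the slide as a term.

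The cytokines of the acute response fell in part. Of 24 cytokines, 7 were called lower and 0 higher, with a median of -1.05. The fit with the slide called 0 of them and had a median of -0.59. Il22, which acts on epithelium, differed most (-4.31 ± 1.06, adjusted p = 0.0197). Csf3, the growth factor of neutrophils, went from 2.40, 0.60 and 0.66 at 12 h to -1.65, -1.61 and -1.44 at 72 h (-2.79 ± 0.48, adjusted p = 0.00387), and Il1rn, the antagonist of the interleukin-1 receptor, from 6.01, 4.85 and 5.33 to 2.06, 2.67 and 3.75 (-2.57 ± 0.58, adjusted p = 0.0135). In both the groups did not overlap, and for Il1rn 72 h replicate 3 stayed nearest to 12 h. Tnf was at 3.04, 1.35 and 1.86 at 12 h and at -0.22, -0.30 and 1.21 at 72 h, so that 72 h replicate 3 lay just under the lowest 12 h array (-1.85 ± 0.47, adjusted p = 0.0221). Osm, Lif and Il18 fell by 1.86, 1.22 and 1.17. Without 12 h replicate 1, 2 of the 24 cytokines were called lower, and without 72 h replicate 2, 3 were.

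Il6 was not among those called. It was at 2.31, 3.03 and 0.95 at 12 h and at 3.07, 2.18 and 2.37 at 72 h against a sham mean of -4.66. The groups overlapped, 12 h replicate 3 was the lowest of the 6 arrays, and the difference was 0.45 ± 0.45, adjusted p = 0.509. With the slide as a term, where 12 h replicate 3 sets the estimate, it was 1.59 (adjusted p = 0.0595). Il1b was at -0.995 (adjusted p = 0.128) and Il10 at -2.10 (adjusted p = 0.0541), neither called. Among 15 genes of the IL-6 receptor and the STAT3 response, 2 were higher, Timp1 and Lifr, the receptor of LIF (1.41 ± 0.18), and 1 was lower, the kinase Pim1 (-1.01 ± 0.22). The median was 0.22, and 1 was higher and 0 lower with the slide as a term. The receptor chains Il6ra and Il6st were at 0.09 (adjusted p = 0.693) and 0.67 (adjusted p = 0.0157), Stat3 at -0.29 (adjusted p = 0.104) and its feedback inhibitor Socs3 at -0.99 (adjusted p = 0.0866).

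Of 34 chemokines and receptors other than those for neutrophils, 3 were higher, 8 lower and 23 not called, and 1 and 1 were higher and lower with the slide as a term. Ccl4, made by activated myeloid cells, fell from 7.62, 6.06 and 6.06 to 2.61, 2.93 and 3.76 (-3.48 ± 0.54, adjusted p = 0.00224). No array of 72 h reached the 12 h arrays. Ccl3 differed by -2.06 ± 0.58 and the monocyte chemokines Ccl2 and Ccl7 by -1.55 ± 0.34 and -1.10 ± 0.32. Cxcl9, a T cell chemokine, differed by -2.36 ± 0.57, and the dendritic cell genes Ccl17 and Ccr7 by -2.71 ± 0.47 and -1.83 ± 0.31. Ccl22 was above background on 2 of the 3 arrays of 12 h and on none of 72 h, and was at least 1.30-fold lower. The rises were those of Ccl8 (2.20 ± 0.35), made by resident macrophages, Cx3cr1 (1.79 ± 0.24), the fractalkine receptor of monocytes and macrophages, and Cxcl12 (1.19 ± 0.30), a stromal chemokine. Without 12 h replicate 2, or without 72 h replicate 1 or 2, 2 were higher and 5 lower.

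Of 8 neutrophil chemoattractants and receptors, 2 were lower and 0 higher, Cxcl2 and Cxcl3. Cxcl2 was at 5.70, 4.66 and 4.15 at 12 h and at 2.78, 2.61 and 3.89 at 72 h, against a sham mean of -6.19 (-1.74 ± 0.49, adjusted p = 0.0358). All 72 h arrays lay below the 12 h arrays, replicate 3 by the smallest step. Cxcl1 and Cxcl5 were at -0.80 (adjusted p = 0.176) and -0.14 (adjusted p = 0.79). Against sham, all 8 genes of the list were called higher at 12 h and at 72 h, and both counts share the sham arrays. In the fit with the slide 1 was higher and 0 lower and the median of the list moved from -0.48 to 0.02, and without 12 h replicate 1 or 2, or 72 h replicate 1 or 2, 0 were called.

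Neutrophil transcripts did not fall together. Of 23 markers, 4 were lower and 3 higher, with a median of -0.81, and 1 lower and 0 higher with the slide as a term. Ly6g, a surface marker of mature neutrophils, was at 4.92, 4.57 and 4.82 at 12 h and at 0.84, 0.64 and 1.66 at 72 h (-3.73 ± 0.55, adjusted p = 0.0019). Its 72 h arrays lay among the sham arrays, whose mean was 1.12. Most of the list did not return to sham in this way. Against the same sham arrays, 18 of the 23 markers were called higher at 12 h and 15 at 72 h. Ngp, a protein of the specific granules made in maturing neutrophils, fell from 0.81, -0.44 and -0.83 to -7.21, -5.19 and -3.43 (-5.12 ± 0.87, adjusted p = 0.00368). Here the 72 h arrays were spread widely, with replicate 3 the highest and replicate 1 near the sham mean of -6.21. Ltf, lactoferrin of the same granules, and Lcn2, which other cells also make, differed by -2.83 ± 0.71 and -2.34 ± 0.60.

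The rises were in genes of the azurophil granules, which are made at the earliest stage of neutrophil formation in the marrow. Mpo, myeloperoxidase, was at -3.57, -3.31 and -2.96 at 12 h and at -0.33, -0.95 and -2.10 at 72 h (2.16 ± 0.39, adjusted p = 0.00462). The groups did not overlap, and 72 h replicate 3, which held the highest level of Ngp, held the lowest of Mpo. Prtn3 differed by 1.76 ± 0.46, and Ctsg, not well above background on any 12 h array, was at least 2.65-fold higher, while Elane was at 0.05 (adjusted p = 0.814). Grouped by granule after their values were seen, the 4 azurophil genes had a median of 1.69 and the 6 genes of specific granules and the surface a median of -2.58, and their difference was not tested. The abundant S100a8 and S100a9 were at -1.37 (adjusted p = 0.147) and -0.78 (adjusted p = 0.271). The mean level of the 23 markers was between 2.04 and 2.42 on the 12 h arrays and 1.16, 1.07 and 1.96 on the 72 h arrays. On the sham arrays it was between -2.82 and -2.31. Leaving out any array of 12 h, or 72 h replicate 1 or 2, left between 3 and 4 of the 23 genes called.

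Of 8 mast cell markers, 3 were higher, the proteases Cma1 (2.42 ± 0.69), Cpa3 (1.79 ± 0.46) and Tpsb2 (1.37 ± 0.35). The count was 0 with the slide as a term and also without 12 h replicate 2 or 3 or 72 h replicate 1 or 2, and it was 1 without 12 h replicate 1.

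**Figure D4:**
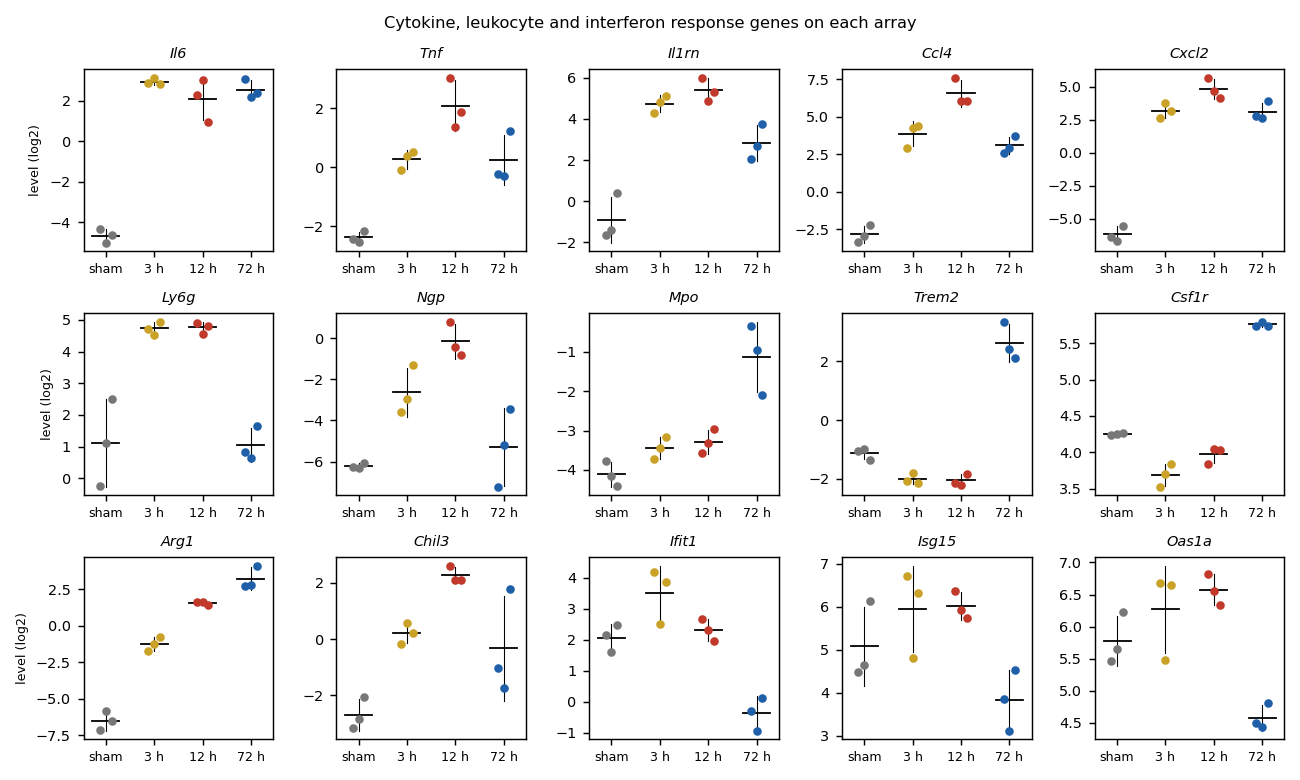
Level (log2 relative to the 75th percentile) of 15 cytokine, leukocyte and interferon response genes on each of the 12 arrays, by group; points are arrays, the thick line is the group mean and the thin bar is 1 SD to each side over the 3 arrays of a group. The 12 h and 72 h arrays of Il6 overlap, Ly6g and Ccl4 fall in all 3 arrays, Mpo, Trem2 and Csf1r rise, and Ifit1, Isg15 and Oas1a lie below the sham mean at 72 h.

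The list with the largest share of lower genes was the type I interferon response. These genes are switched on when interferon-alpha or interferon-beta activates the complex ISGF3, which binds the interferon-stimulated response element in their promoters, and their products block viral RNA and proteins. The core of that element can be written as GAAA repeated after any 2 bases. Of the 14 genes of the list, 10 had a promoter among the RefSeq sequences of GRCm38.p6, and 5 of these 10 held the core on either strand within the 250 bases before the start. Over all 27025 genes with a promoter of the same length, 3.46% held the core, and over their 32851 promoters 2.98% did. The 120 bases nearest the cores are printed for 4 genes that were called lower, 5′ to 3′ in the direction of transcription, with the cores in capitals, overlapping copies merged. They show where the letters recur in the genes whose levels follow. The windows are chr4:156200819-156200938 on the minus strand for Isg15, chr19:34640769-34640888 on the plus strand for Ifit1, chr19:34583397-34583516 on the plus strand for Ifit3 and chr5:120907526-120907645 on the minus strand for Oas1a.
Isg15: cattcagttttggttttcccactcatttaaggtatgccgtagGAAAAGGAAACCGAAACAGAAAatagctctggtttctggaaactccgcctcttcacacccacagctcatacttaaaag
Ifit1: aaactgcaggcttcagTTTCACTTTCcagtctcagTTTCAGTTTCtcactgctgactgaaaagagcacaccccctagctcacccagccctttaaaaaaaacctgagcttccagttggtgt
Ifit3: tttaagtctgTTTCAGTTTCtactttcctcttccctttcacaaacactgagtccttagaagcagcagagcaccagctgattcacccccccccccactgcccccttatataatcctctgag
Oas1a: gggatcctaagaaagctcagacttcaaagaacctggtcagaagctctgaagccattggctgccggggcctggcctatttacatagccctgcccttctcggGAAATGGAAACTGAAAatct
In Isg15 the core occurs 3 times in 1 overlapping run and in Oas1a 2 times in 1 run just before the start, whereas Ifit1 and Ifit3 each hold 2 separate copies on the opposite strand, of which the one farther from the start of Ifit3 lies outside the printed bases. The sequences are a description of the letters, and the binding of a factor was not measured.

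Of the 14 genes, 11 were called lower and 0 higher, with a median of -1.54. Ifit1, which binds foreign RNA, was at 2.67, 2.32 and 1.96 at 12 h and at -0.30, -0.92 and 0.14 at 72 h, and the 72 h arrays lay below the sham mean of 2.08 as well (-2.68 ± 0.44, adjusted p = 0.00295). Isg15, a ubiquitin-like modifier, was at 6.37, 5.93 and 5.75 and 3.86, 3.12 and 4.52 (-2.18 ± 0.57, adjusted p = 0.0266). Oas1a, a sensor of double-stranded RNA, fell from 6.83, 6.55 and 6.34 to 4.50, 4.43 and 4.81 (-1.99 ± 0.32, adjusted p = 0.00268). In all 3 genes the 72 h arrays lay below every 12 h array, and 72 h replicate 3 was the highest of its group. Ifit2, Usp18 and Ifit3 fell by 2.62, 2.19 and 1.97, and Irf7, the transcription factor that amplifies the response, by 1.72. Mx1, Mx2, Cmpk2 and Oasl1 fell by between 1.09 and 1.35. Ifi44 was at -0.50 (adjusted p = 0.423), and Rsad2 and Oas2 were at -1.11 (adjusted p = 0.122) and -1.30 (adjusted p = 0.157).

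Of the 8 genes called lower with a promoter at hand, 4 held the core and the other 4 fell without these letters in the window. The slide as a term left 1 gene called lower, and the median was -1.53, with larger standard errors. Without 72 h replicate 2, 7 were called lower. Against sham, a comparison that shares the 72 h arrays, 8 of the 14 genes were called lower at 72 h and 0 higher, and against the same sham arrays 0 were called at 12 h.

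Of 18 genes of the interferon-gamma response and of MHC class II, 1 was called lower, Igtp (-1.38 ± 0.42), an interferon-inducible GTPase, and 0 were higher. The 4 class II genes H2-Aa, H2-Ab1, H2-Eb1 and Cd74 had differences between 0.33 and 0.74, none called. The call of Igtp was lost with the slide as a term and in the fits without sham replicate 1 or 2, 3 h replicate 3, any array of 12 h, or 72 h replicate 1 or 2. Without 3 h replicate 1 or 2, 2 of the 18 genes were lower, and without 72 h replicate 3, 3 were.

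Growth factors went both ways. Of 24 growth factors and receptors of repair, 8 were higher and 3 lower, and 4 and 2 with the slide as a term. Rspo1, an enhancer of Wnt signaling made by mesothelium and stroma, went from -3.25, -3.72 and -2.85 to 1.51, 0.49 and -0.09 (3.91 ± 0.39, adjusted p = 0.00029). Igf1, made by stroma and macrophages, was at -0.47, -0.37 and -0.09 and 3.48, 2.57 and 1.63 (2.87 ± 0.38, adjusted p = 0.00107). Neither gene's groups overlapped. Hgf differed by 1.51 ± 0.36, Wnt5a by 1.33 ± 0.29 and Fgf10 by 1.18 ± 0.30, and 3 of the 4 chains of PDGF, Pdgfb, Pdgfc and Pdgfd, by 1.16 ± 0.23, 1.05 ± 0.15 and 1.72 ± 0.37. The falls were those of 3 of the 4 ligands of the EGF receptor, which epithelium makes early after injury. Areg, amphiregulin, fell from 2.84, 2.16 and 1.62 to -0.32, 0.19 and 0.80 (-1.98 ± 0.36, adjusted p = 0.00533). Hbegf differed by -1.48 ± 0.12 and Tgfa by -1.42 ± 0.20. Without 72 h replicate 1, 4 of the 24 genes were higher and 3 lower.

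Of 22 endothelial and angiogenic genes, 7 were higher and 0 lower, and 2 with the slide as a term. Aplnr, the apelin receptor of sprouting vessels, differed by 2.84 ± 0.45. The angiopoietin receptor Tek and the related Tie1 differed by 1.05 ± 0.32 and 1.95 ± 0.30, and Angpt1, a ligand of Tek, by 2.03 ± 0.30. The junction protein Cdh5 differed by 1.21 ± 0.31 and Vegfc by 1.30 ± 0.10. Pecam1, present on all endothelium, was at 0.10 (adjusted p = 0.809), and Vegfa at -0.45 (adjusted p = 0.376). Without 72 h replicate 1, 4 of the 22 were called.

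Genes of the absorptive epithelium fell in part. Of 20 genes, 6 were lower and 0 higher, with a median of -0.40, and 4 with the slide as a term. Besides Slc9a3, Car4, a carbonic anhydrase of the brush border, went from 2.97, 3.02 and 2.86 to 0.31, -0.60 and -0.66 (-3.26 ± 0.31, adjusted p = 0.000254). Aqp8, a water channel of the surface colonocyte, went from 7.50, 7.54 and 6.94 to 5.41, 5.69 and 5.34 (-1.85 ± 0.16, adjusted p = 0.000177). Neither pair of groups overlapped. Krt20, a keratin of differentiated cells, Scnn1g, a subunit of the sodium channel, and Car1 fell by 1.45, 1.40 and 1.14. The other 14 genes of the list were not called, among them Slc5a8, a butyrate transporter, at -0.99 (adjusted p = 0.0507). Of 14 epithelial identity and junction genes only Cldn7 was called (-1.01 ± 0.15), not so without 12 h replicate 2, without 72 h replicate 1 or with the slide as a term. Epcam was at -0.71 (adjusted p = 0.0235) and Cdh1 at -0.50 (adjusted p = 0.0821).

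Of 16 antimicrobial and defence genes of the epithelium, 5 were lower, 1 was higher and 10 were not called, with 2 lower and 0 higher under the slide as a term. Duox2, an oxidase that makes hydrogen peroxide at the epithelial surface, fell from 1.11, 1.34 and 1.05 to -1.87, -1.69 and -1.04, and its maturation factor Duoxa2 differed by -1.66 ± 0.30 (-2.70 ± 0.22, adjusted p = 0.000152 for Duox2). Saa1 and Saa2, serum amyloid genes of near-identical sequence, differed by -1.21 ± 0.37 and -1.73 ± 0.34. Pla2g2a, a phospholipase gene, was the exception, with 2.41 ± 0.54, and its call was lost with the slide as a term. Reg3b and Reg3g were at -2.11 (adjusted p = 0.242) and -2.06 (adjusted p = 0.14), and neither was called. Of 12 goblet cell genes, 3 were lower, Muc13 (-1.36 ± 0.14), Muc1 (-1.21 ± 0.24) and Clca1 (-1.14 ± 0.22), and 2 with the slide as a term, while Muc2, the main gel-forming mucin, was at 0.19 (adjusted p = 0.417). Muc13 and Muc1 are membrane mucins that other epithelial cells also carry.

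Of 12 genes listed for crypt stem cells, 3 were higher and 1, Olfm4, was lower, and 2 and 0 with the slide as a term. Lgr5, the receptor that marks crypt base stem cells, was at -0.77, -0.66 and -0.72 at 12 h and at -0.22, 0.47 and 0.61 at 72 h (1.003 ± 0.23, adjusted p = 0.0134). Axin2, a target of Wnt signaling, and Smoc2 differed by 1.54 ± 0.20 and 1.55 ± 0.21. Olfm4 was at -1.79, -2.97 and -2.95 and -7.52, -7.04 and -4.38, with 2 of the 72 h arrays near the sham mean of -7.34 (-3.74 ± 0.70, adjusted p = 0.00589). Stromal cells also express Axin2 and Smoc2. In sham Olfm4 stood near the floor of the arrays, so its fall is not read as a change of crypt stem cells. Over the alternative settings the difference of Olfm4 ranged from -4.71 to -0.82.

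**Figure D5:**
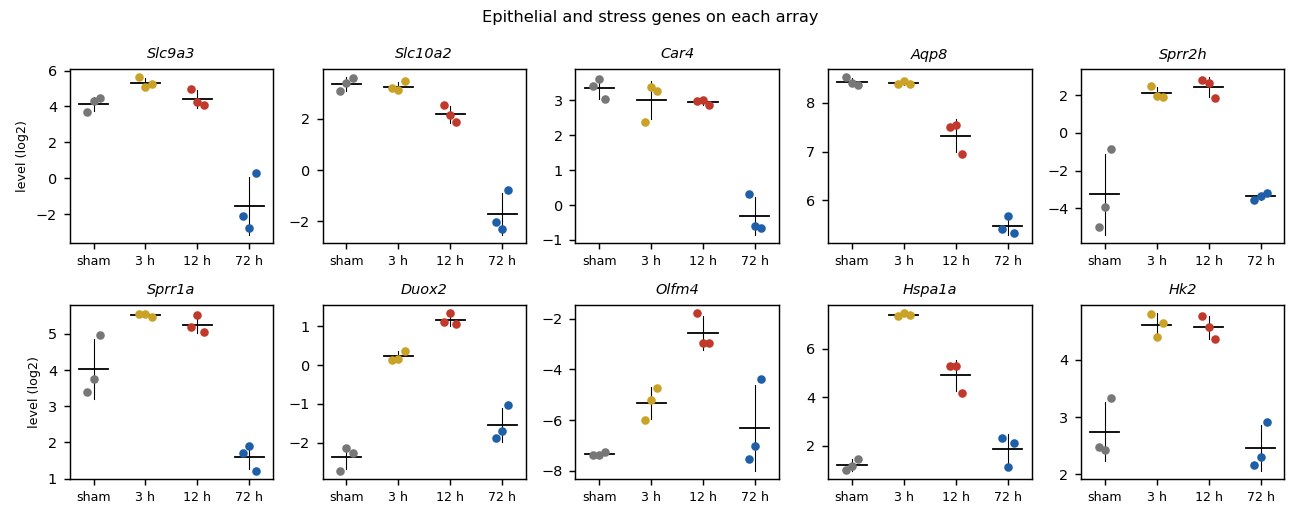
Level (log2 relative to the 75th percentile) of 10 epithelial and stress genes on each of the 12 arrays, by group; points are arrays, the thick line is the group mean and the thin bar is 1 SD to each side over the 3 arrays of a group. Slc9a3, Slc10a2, Car4, Aqp8 and Sprr1a lie below the sham mean at 72 h, whereas Sprr2h, Hspa1a and Hk2 lie near it.

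All 11 heat shock genes had a difference below 0, and 5 were called lower, with a median of -0.74, or 1 with the slide as a term. Hspa1a, an inducible HSP70, was at 5.27, 5.28 and 4.15 at 12 h and at 2.33, 1.11 and 2.08 at 72 h (-3.06 ± 0.35, adjusted p = 0.000559). Hspa1b, whose sequence is almost identical, differed by -2.33 ± 0.39, and the probes may read both genes. Hsph1, Hspd1 and Hsp90aa1 fell by 1.12, 1.04 and 1.01, and without 12 h replicate 2 or 72 h replicate 2, 2 of the 11 were called. Of 15 immediate early genes, 5 were lower and 0 higher, Nr4a1 (-1.76 ± 0.30), Egr3 (-1.59 ± 0.34), Fosl1 (-1.30 ± 0.27), Atf3 (-1.11 ± 0.26) and Egr1 (-1.09 ± 0.27). With the slide as a term 0 were called, and without 12 h replicate 1, 3 were.

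Of 13 hypoxia and glycolysis genes, 2 were lower, and 1 with the slide as a term. Hk2, hexokinase 2, went from 4.77, 4.57 and 4.37 to 2.16, 2.29 and 2.91, back to the range of the sham arrays, whose mean was 2.74 (-2.11 ± 0.27, adjusted p = 0.000911). Adm, adrenomedullin, fell by 1.24. Without 72 h replicate 3, 4 of these genes were called. Of 11 genes induced by glucocorticoids, 2 were lower, the phosphatase Dusp1 (-1.29 ± 0.21) and the metallothionein Mt2 (-1.004 ± 0.16), and 1 with the slide as a term, as also without 12 h replicate 1 or 72 h replicate 2.

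Of 17 genes of the secretory pathway and the unfolded protein response, 2 were higher and 2 lower, and 2 and 0 with the slide as a term. Creb3l1, a transcription factor that drives secretion of collagen, and Kdelr3, a retrieval receptor of the endoplasmic reticulum, differed by 1.39 ± 0.11 and 1.89 ± 0.22. The chaperone Hspa5, or BiP, was lower (-1.02 ± 0.28, adjusted p = 0.0327), and so was Sdf2l1 (-1.12 ± 0.23). Xbp1 was at -0.56 (adjusted p = 0.0148) and Atf4 at -0.43 (adjusted p = 0.0352), both under the 2-fold threshold.

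In the lists of lipid mediators and nerves, 10 of 13 and 12 of 15 genes were not called. Of 13 eicosanoid enzymes and receptors, 3 were higher and 0 lower, Alox15 (2.44 ± 0.68), a lipoxygenase of resident peritoneal macrophages, Ptgis (2.24 ± 0.33), the prostacyclin synthase, and Ptger3 (1.998 ± 0.42), a receptor of prostaglandin E, and 1 with the slide as a term. Ptgs2, the inducible cyclooxygenase, was at -0.96 (adjusted p = 0.085). With the slide as a term the median of the eicosanoid list moved from 0.30 to -0.0057, and that of the nerve list from 0.39 to -0.090. Of 15 enteric neuron, glia and pacemaker genes, 2 were higher, among them the glial gene S100b (1.08 ± 0.19), and Snap25, of neuronal synapses, was lower (-1.01 ± 0.14), though the mean of its 3 probes gave 0.061. Under the fit with the slide 1 of the 15 genes was higher and 0 lower.

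Lymphocyte markers were lower in value but not called. Of 12 T cell markers limma called 0, with 6 at an unadjusted p below 0.05. Of 11 B cell and plasma cell markers it called 0, with 1 at such a p. The unpaired t-test called 0 in both lists. The methods' paired form called 0 of all 37074 genes, which says nothing about these lists. The median differences were -0.72 and -0.99. Cd3e was at 1.97, 1.43 and 1.67 at 12 h and at 0.67, 1.25 and 1.24 at 72 h (-0.64 ± 0.24, adjusted p = 0.0933), so that the groups did not overlap although the difference stayed under 2-fold. The mean level of the B cell markers was between 0.51 and 1.39 on the 12 h arrays and between -0.79 and 0.54 on the 72 h arrays, with an overlap of the groups. Without 3 h replicate 1, 1 B cell gene was called lower and without 3 h replicate 3, 2 were.

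Proliferation genes had no call. Of 33 cell cycle and mitosis genes limma called 0, with 2 at an unadjusted p below 0.05, while the unpaired t-test called 1. The methods' paired form called 0 of all 37074 genes, so its 0 here carries no information. Mki67 was at 3.80, 4.09 and 3.85 at 12 h and at 3.64, 3.50 and 3.79 at 72 h, so that the 72 h arrays lay just below the 12 h arrays (-0.27 ± 0.25, adjusted p = 0.48). The median of the list was -0.07, and 1 gene was called lower without sham replicate 1, sham replicate 3 or 3 h replicate 1. Of 17 clock genes, which vary with the hour of the day, 1 was called higher, Dbp (1.39 ± 0.35), and 0 with the slide as a term or without 12 h replicate 2 or 72 h replicate 2, with 2 called without 72 h replicate 1 and, in opposite directions, without 72 h replicate 3. Of 13 fatty acid synthesis genes, 1 was called, Pnpla3, which was not well above background on any 12 h array and was at least 1.73-fold higher. It was not called with the slide as a term, nor without sham replicate 1 or 2, 3 h replicate 3, 12 h replicate 1 or 72 h replicate 1, and 2 genes were higher and 1 lower without 72 h replicate 3.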

How the data were processed

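Cecum RNA was measured on 1-colour arrays, 3 per group, with groups taken from the treatment label. The scanner files that the authors deposited give an intensity per spot, linear and background-corrected by Agilent Feature Extraction 11.5.1.1, with no scaling across arrays. A table of log2 values that the authors made from them, with 75th percentile scaling and centring per probe, served as an alternative and correlated by 0.99997 with the recomputed values after like centring.

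For every array, the 75th percentile over non-control probes was subtracted from log2 of the intensity. Control spots and outlier spots were dropped, repeated spots were averaged, and each of 37074 gene names was represented by its brightest probe. Probe positions follow mm9, as the scanner files give them. The 4 group means were estimated over 12 arrays by limma 3.58.1 (lmFit, contrasts.fit, eBayes; R 4.3.3, data.table, 1.17.8), and p-values of 56605 probes were adjusted by Benjamini-Hochberg. For a probe that no array of 1 group had well above background, a fold is given only as a bound, from the lowest signal well above background or the probe's own. Figures and promoter searches used Python 3.11.15, pandas 2.3.3 and matplotlib 3.10.9, and promoters were RefSeq sequences of GRCm38.p6.

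The comparison, the gene lists and the rule for names were chosen with earlier results of these data known. The names are the 10 largest rises and falls among called genes with a symbol, above background on all 6 arrays and without overlap, the called or defining members of the lists, and genes the paper names for the mouse. The text does not name all of them, and a few list members counted in the totals are not reported here by name. The lists carry no test and are described by counts of called genes. Alternatives were other scalings, normexp with an offset of 50, the authors' table, filters, blocks for slide and replicate number, other tests and thresholds, and omission of single arrays. The number of arrays limits the precision, and an exact permutation test of 3 against 3 could not go below p = 0.1.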

Additional observations from a re-analysis of the deposited data

How the results depend on the processing

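The counts of called genes stayed within 1.5 times the reported ones under quantile normalization, the percentile over probes above background, centring on the median, the authors' table, the filter on dim probes, outlier spots kept, the fit of the 6 arrays alone, eBayes with trend and robust and the mean of all probes. Leaving out 1 array at a time gave between 2113 and 3088 called genes, between 1276 and 1806 higher and between 837 and 1413 lower. Other settings moved them. Normexp background correction gave 1065 genes (597 higher, 468 lower) and the slide as a block 1225 (699 and 526). Within slide 2, where 12 h replicate 3 is alone and is assumed to vary like the 72 h arrays, limma called 17 (0 and 17), which rests on fewer arrays. The methods' t-test in its paired form called 0 genes after Benjamini-Hochberg (0 higher, 0 lower), with 6701 at an unadjusted p below 0.05, and the unpaired form called 922 (482 and 440). Testing against a 2-fold change with treat gave 241 (162 and 79), and no fold threshold gave 6872 (3244 and 3628). Lower genes outnumbered higher ones only without a fold threshold and within slide 2.

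With the replicate number as a block, 2612 genes were called, 1500 higher and 1112 lower. Replicate numbers were not shown to pair the arrays, since the deviations of 12 h and 72 h arrays of the same number correlated by -0.15, 0.12 and -0.22. With the block on the 6 arrays alone, a setting chosen after seeing the data, 255 genes were called, 129 higher and 126 lower.

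Over 251 genes named in the text, 22 of 6523 recomputed differences changed sign and 871 kept their sign but lost the call. The slide as a block and within slide 2, which give 1 estimate, turned Acta2 to -0.0051, Cxcl5 to 0.20, Elane to -0.16, Il6ra to -0.013 and Msln to -0.037. Quantile normalization turned Cxcl5 to 0.089, the percentile over probes above background turned Tgfb1 to 0.0074, normexp turned Elane to -0.0057, and the mean of all probes turned Il6ra to -0.038 and Snap25 to 0.061. With 1 array left out, the difference ranged from -0.44 to 0.030 for Cxcl5, from -0.030 to 0.15 for Elane, from -0.13 to 0.91 for Il6 (the lowest without 12 h replicate 3) and from -0.092 to 0.39 for Pecam1. Of these genes, Snap25 alone was called in the reported fit. The cause was not tested. The slide setting rests on 12 h replicate 3, which alone stands beside the 72 h arrays, and dim probes are limited to bounds.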
